A study of Homo sapiens with 10 samples.

Results

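The cytochrome P450 enzymes and the aryl hydrocarbon receptor (AHR) pathway were examined in A549 cells, a human lung adenocarcinoma cell line, grown in rotating wall vessels (RWV) or as monolayers (Mono). The members were all array spots whose single gene symbol began with CYP and a digit, leaving out CYP51A1, or was AHR, AHRR, ARNT, TIPARP or POR. They were 93 spots for 61 genes, of 31332 spots with 1 symbol for 18334 genes. By annotation 53 of the 61 were protein-coding, 5 were P450 pseudogenes and 3 were antisense RNAs that take their names from a P450 gene. In an RWV, slow rotation of a full vessel of medium keeps cells in suspension, where they often form aggregates. RNA of 5 RWV and 5 Mono cultures, biological replicates per the series' design text, was hybridised to 1 Cy3 array each. The protocol names Dulbecco's modified medium, to which 10% foetal calf serum and glutamine at 4 mM had been added, and no drug or AHR ligand is named for either group. The time in culture is not given in the sources used here, and the cells are all 1 line.

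P450 enzymes are haem proteins that oxidise drugs, pollutants, steroids, fatty acids and vitamins, and those of the endoplasmic reticulum take their electrons from the reductase POR. AHR is a ligand-activated transcription factor that pairs with ARNT on DNA, and CYP1A1, CYP1A2, CYP1B1, AHRR and TIPARP are its classical targets. In lung epithelium the family 1 enzymes are known for activating the hydrocarbons of smoke, and CYP3A5 is known as the main CYP3A form of the lung.

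The arrays carried 422 to 823 spots at or above a deposited intensity of 60000 in RWV and 445 to 866 in Mono cultures, and median deposited intensities of 114 to 138 and 122 to 184.5. The number of arrays limits the precision. CYP51A1-AS1 was the 1 member with a spot in that range, on 9 of 10 arrays. Of the epithelial markers EPCAM, CDH1, KRT8, KRT18 and KRT7, 5 of 5 were above 100 in both groups, and their summed level was 35245 to 51601 in RWV and 47918 to 63037 in Mono cultures. KRT7 fell by 1.7 ± 0.21 on the log2 scale without overlap (limma adjusted p = 0.00014), and KRT18 and KRT8 had spots at or above 60000 on 10 and 8 arrays. Summed levels of 3 leukocyte, 3 fibroblast and 3 endothelial markers lay between 90.7 and 182.1 in RWV and between 102.6 and 227.1 in Mono cultures. Of these 9 genes COL1A1 was lower in RWV (-0.47 ± 0.16, limma adjusted p = 0.049). Of the hepatocyte markers, ALB and TTR rose and APOA1 stayed below 100 on all RWV arrays. Their sum was 868.5 to 4644 in RWV and 63.2 to 307.4 in Mono cultures.

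RWV growth went with higher levels of 3 of the 4 drug-metabolising CYP3A genes, of 5 of the 8 CYP4F genes and pseudogenes and of the AHR target TIPARP, and with a lower level of the retinoic acid hydroxylase CYP26A1. CYP1A1 was below 100 on all 5 RWV arrays and on 4 of the 5 Mono arrays, and was not past the test. Of the 61 genes, 17 (27.9%) were higher and 1 (1.64%) was lower in RWV by limma (p adjusted by Benjamini-Hochberg over all 18334 genes, threshold 0.05), where 15% of all genes were higher and 15.2% lower. In all, 29.5% of the members passed, against 30.1% of all genes. At least 2-fold changes were called for 8 of the 61 members higher and 1 lower, against 871 (4.75%) and 653 (3.56%) of all 18334 genes. In 14 members (23%) the RWV values all lay on 1 side of all Mono values, as they did in 23.1% of all genes. In 13 of the 14 the RWV values were the higher, against 10.9% of all genes, and in 1 the lower, against 12.2%. The median log2 fold change was 0.09 over the members and 0.01 over all genes. Levels are quantile-normalised intensities, and fold changes are RWV over Mono on a log2(value + 50) scale, which understates changes of dim genes. The value after ± of a fold change is its standard error. In bulk RNA, fewer cells of a type and less RNA per cell cannot be told apart. Without normalisation between arrays 7 members were higher and 3 lower, beside 1037 higher and 2518 lower among all genes.

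Dim here means below a normalised intensity of 100 at every spot of a gene, on all 5 arrays of the group. Of the 61 genes, 23 (37.7%) were dim in both groups, against 25.3% of all genes. These were CYP3A43, CYP2A6, CYP2A7, CYP2C8, CYP2E1, CYP2J2, CYP4B1, CYP4F22, CYP4X1, CYP4Z1, CYP7A1, CYP7B1, CYP8B1, CYP27A1, CYP39A1, CYP46A1, CYP11B2, CYP17A1, CYP21A2, the pseudogenes CYP2B7P and CYP4Z2P, and the antisense RNAs CYP1B1-AS1 and CYP2U1-AS1. A further 10 were dim in 1 group: CYP2A13, CYP2D6, CYP4A11 and CYP11A1 in Mono cultures, and AHRR, CYP1A1, CYP26A1, CYP2F1, CYP19A1 and CYP4F29P in RWV cultures. Of these 10, AHRR, CYP1A1, CYP2F1, CYP19A1 and CYP4F29P were also below 100 on 4 of the 5 Mono arrays. CYP4A11 and CYP11A1 were also below 100 on 4 of the 5 RWV arrays. The remaining 28 of the 61 genes were above 100 on at least 1 array of each group. All 6 enzymes of bile acid and sterol metabolism were dim in both groups, and so were 3 of the 6 steroid hormone enzymes. Passing the filter can itself come from the group in which a gene is high, so the counts below are given over all genes of each family.

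**Figure D1:**
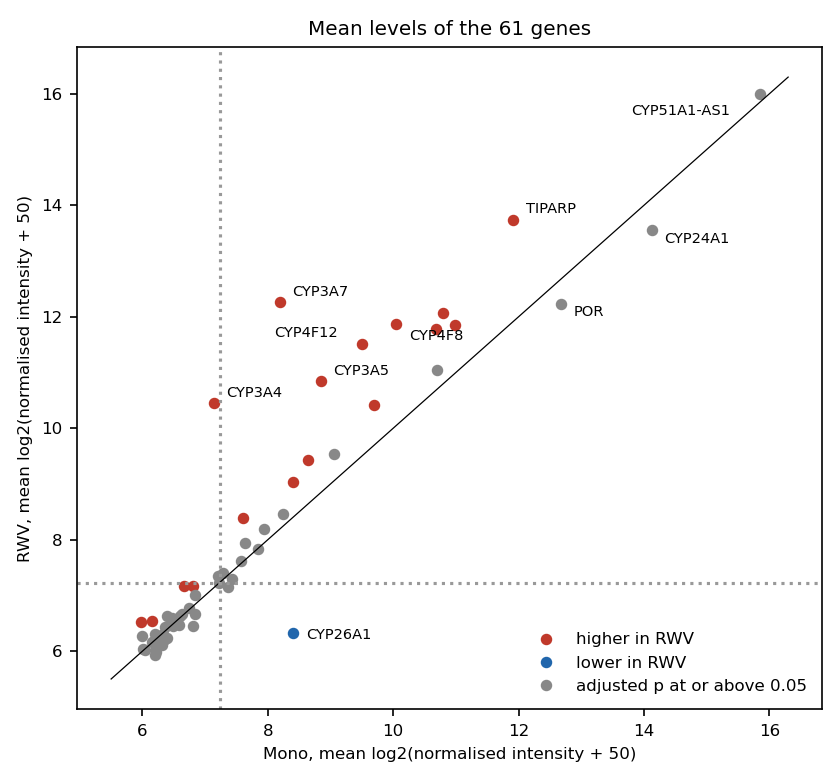
Mean level of each of the 61 genes in RWV (vertical axis) against Mono cultures (horizontal axis), as log2(normalised intensity + 50). Dotted lines mark an intensity of 100, the diagonal marks equal levels, and colours mark genes past the limma test; CYP3A4, CYP3A5 and CYP3A7 lie far above the diagonal and CYP26A1 far below it.

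**Figure D2:**
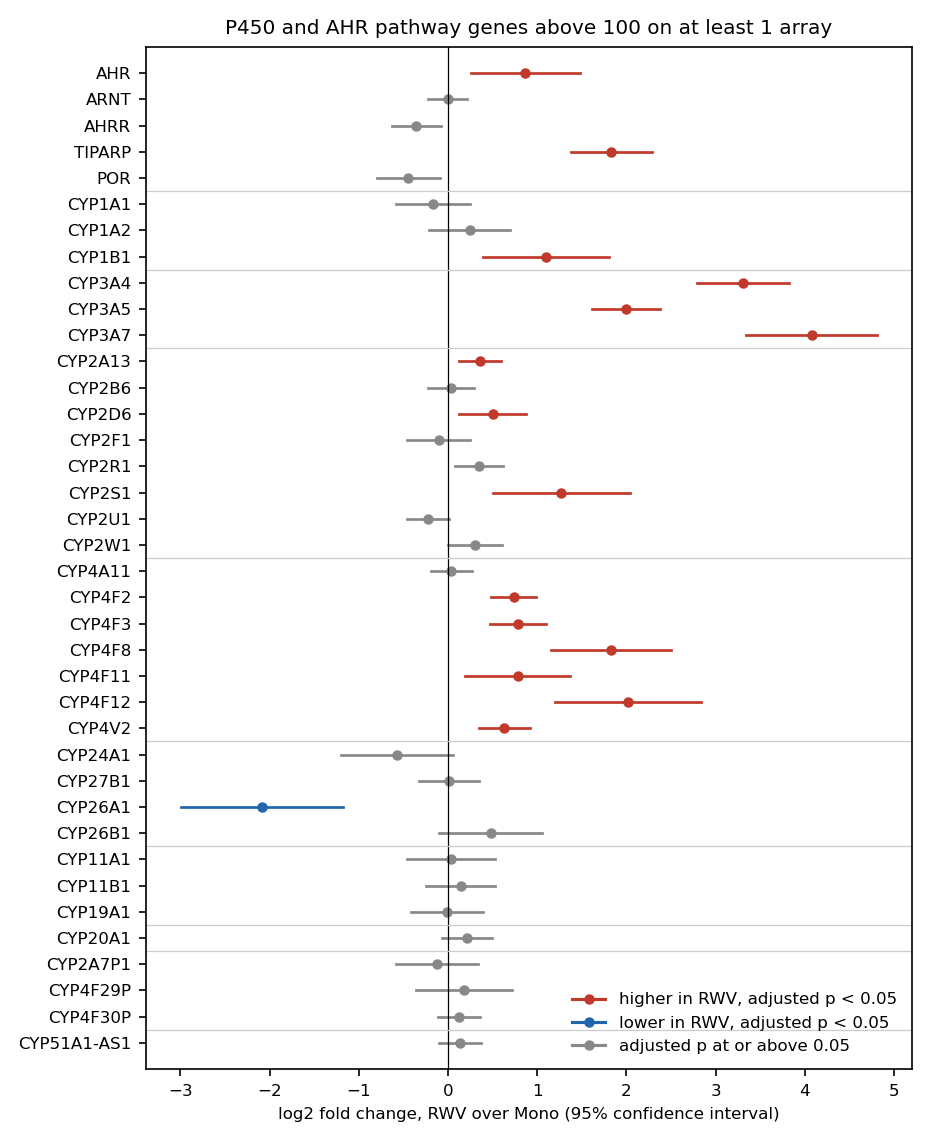
Log2 fold change, RWV over Mono, with its 95% confidence interval (limma, 5 arrays a group) for the 38 genes above an intensity of 100 on at least 1 array, grouped by family. The 15 red genes were higher and the 1 blue gene, CYP26A1, was lower in RWV. A gene can pass this filter through the group in which it is high, so shares are given over all 61 genes. Of these 27.9% were higher and 1.64% lower, against 15% and 15.2% of all genes.

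The receptor itself was somewhat higher in RWV cultures. AHR had normalised intensities of 3409, 4704, 3564, 2966 and 3695 on RWV arrays 1 to 5, against 1801, 2431, 3031, 868 and 2517 on Mono arrays 1 to 5. All RWV values but that of array 4 lay above all Mono values, and Mono 4 was the lowest. AHR rose by 0.87 ± 0.28 on the log2 scale (limma adjusted p = 0.034, 95% interval 0.26 to 1.48). This call rested on single arrays, with adjusted p 0.058 without RWV 1, 0.082 without RWV 2, 0.053 without RWV 3, 0.064 without RWV 5 and 0.074 without Mono 1, and it was 0.16 without normalisation between arrays. The arrays fall into 2 sets by the lower end of their intensities, numbers 1 to 3 and numbers 4 and 5, and AHR was not past the test within either (log2 fold change 0.69 and 1.13, limma adjusted p = 0.074 and 0.24). ARNT, the partner that AHR needs to bind DNA, had 197, 255, 263, 249 and 256 on RWV arrays 1 to 5, against 242, 256, 302, 202 and 268 on Mono arrays 1 to 5 at the brighter of its 2 spots. The groups overlapped, and its log2 fold change was -0.00 ± 0.10 (95% interval -0.22 to 0.22, limma adjusted p = 0.98).

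The 2 feedback genes of the pathway lay apart from each other. TIPARP encodes an ADP-ribosyltransferase that AHR induces and that in turn restrains AHR. It had intensities of 15431, 17521, 12939.6, 9319.6 and 14662 on RWV arrays 1 to 5, against 3488, 3015, 3252, 3879 and 6070.3 on Mono arrays 1 to 5. Every RWV array exceeded every Mono array, and TIPARP rose by 1.83 ± 0.21 (limma adjusted p = 0.0001, exact two-sided permutation p = 0.0079, the smallest that 252 assignments of arrays can give). Within the arrays numbered 1 to 3 the log2 fold change was 2.21 (0.0026 adjusted p), and within numbers 4 and 5 it was 1.26 (limma adjusted p = 0.089). AHRR encodes a repressor that competes with AHR for ARNT. At the brighter of its 2 spots it read 54.4, 27.2, 33, 41.4 and 46.3 on RWV arrays 1 to 5, against 80.7, 77.1, 33.2, 114 and 59.9 on Mono arrays 1 to 5, so that only Mono 4 was above the dim level. Its log2 fold change was -0.35 ± 0.12 (limma adjusted p = 0.0502), just short of the threshold. With the array set as a block its adjusted p was 0.045, with dim genes left out 0.039, with a pseudocount of 16 0.04, and without Mono 3 0.016.

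Among the family 1 enzymes, the targets through which AHR activity is usually read, CYP1B1 alone passed the test. CYP1A1, which oxidises polycyclic hydrocarbons, read 38.5, 58.7, 50.1, 51.2 and 59.1 on RWV arrays 1 to 5, against 57.3, 25.7, 54.4, 76.3 and 129.7 on Mono arrays 1 to 5. Only Mono 5 exceeded 100, and the log2 fold change was -0.17 ± 0.19 (95% interval -0.59 to 0.24, limma adjusted p = 0.56). CYP1A2, which metabolises caffeine and aromatic amines, read 1068, 675, 886, 1989 and 1109 on the RWV arrays and 959, 626, 481, 2164 and 952 on the Mono arrays at 1 spot and stayed below 100 on all arrays at its other spot. The spread within each group was wide and the groups overlapped, with a log2 fold change of 0.24 ± 0.21 (limma adjusted p = 0.44). CYP1B1, which also hydroxylates oestradiol, read 5651, 4872, 2656, 2399 and 2886 on RWV arrays 1 to 5, against 3009.8, 2040.4, 1176, 917 and 1566 on Mono arrays 1 to 5. It rose by 1.1 ± 0.32 (limma adjusted p = 0.023), although Mono 1 lay above RWV 3, 4 and 5. The other Mono arrays lay below all RWV arrays. Both groups ranked the array numbers alike, from 1 over 2, 5 and 3 to 4. The labels tie arrays by that number only, and whether arrays of the same number shared a run was not tested. With the replicate number as a block the limma adjusted p of CYP1B1 was 0.0013. Its call was lost without single arrays (adjusted p 0.058 without RWV 1, 0.058 without RWV 2 and 0.0506 without Mono 3) and without normalisation (0.078). Within the 2 sets its log2 fold changes were 1.09 and 1.1 (limma adjusted p = 0.1 and 0.094).

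**Figure D3:**
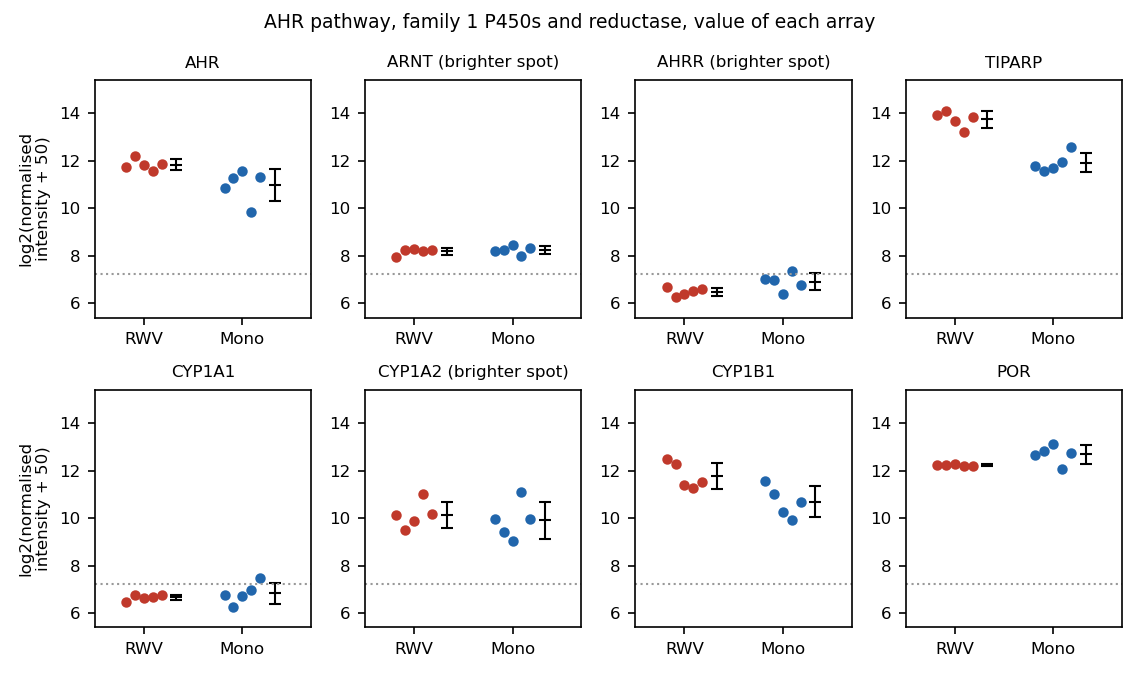
Log2(normalised intensity + 50) on each array for the AHR pathway, the family 1 P450s and POR, RWV left of Mono; bars give the mean and SD of 5 arrays and the dotted line marks an intensity of 100. TIPARP separates the groups completely, CYP1A1 and AHRR lie below the dotted line on all but 1 Mono array each, and the POR values of the RWV arrays almost coincide.

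The promoters of TIPARP and CYP1A1 are shown because both are textbook AHR targets and their levels differed as described. The letters are the 250 bases before a gene start from RefSeq (GRCh38.p14), 5′ to 3′ on the gene's strand, with the core of the AHR response element, GCGTG on either strand, in capitals.
TIPARP (chr3:156674340-156674589, plus strand, 1 of 3 starts listed): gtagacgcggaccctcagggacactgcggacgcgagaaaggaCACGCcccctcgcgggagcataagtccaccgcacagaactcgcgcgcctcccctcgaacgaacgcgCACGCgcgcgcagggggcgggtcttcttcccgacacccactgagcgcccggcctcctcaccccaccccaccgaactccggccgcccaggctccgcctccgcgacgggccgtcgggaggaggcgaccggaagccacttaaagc
CYP1A1 (chr15:74725529-74725778, minus strand): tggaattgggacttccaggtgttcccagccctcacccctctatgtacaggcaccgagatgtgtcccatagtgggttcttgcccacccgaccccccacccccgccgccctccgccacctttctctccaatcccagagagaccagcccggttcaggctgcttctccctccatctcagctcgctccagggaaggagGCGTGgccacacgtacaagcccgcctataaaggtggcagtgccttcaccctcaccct
The core occurred at 2 places before this start of TIPARP and at 1 place before CYP1A1. It is short and common: 32.2% of 35116 such windows of all genes held it, and 14 of the 57 windows (24.6%) of the 42 members with a listed promoter. Its presence does not set TIPARP apart from CYP1A1 in these windows.

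POR, the reductase that supplies electrons to the P450s of the endoplasmic reticulum, had 4750.1, 4814, 4942, 4617 and 4672 on RWV arrays 1 to 5, against 6358, 7245, 8720.5, 4238 and 6785 on Mono arrays 1 to 5. The RWV arrays lay within a narrow band below 4 of the 5 Mono arrays, and Mono 4 lay below all of them. The log2 fold change was -0.45 ± 0.16 (limma adjusted p = 0.056), not past the test. With the array set as a block the adjusted p was 0.042, with scaling to the 75th percentile 0.045 and with dim genes left out 0.045. Without Mono 4 it fell by 0.60 with an adjusted p of 0.002, and without normalisation the adjusted p was 0.017.

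CYP3A7 and CYP3A4 had the largest rises of the members, and CYP3A5 rose at 2 of its 3 spots. The subfamily handles a large share of medicines: CYP3A4 is the main form of adult liver and gut, CYP3A7 the fetal form, and CYP3A5 the form found most in lung. CYP3A4 read 1544, 1555, 892, 1162 and 1740.5 on RWV arrays 1 to 5, against 44.2, 91.9, 178, 68.4 and 101 on Mono arrays 1 to 5. Its lowest RWV value was far above its highest Mono value, and 3 of the Mono arrays were below 100. It averaged 1379 ± 344 in RWV and 96.8 ± 50.6 in Mono cultures (SD, n = 5 each), and rose by 3.31 ± 0.24 (limma adjusted p = 1.76e-05). CYP3A7 read 5742, 5486, 3077, 4357 and 6512 on RWV arrays 1 to 5, against 134, 215, 543, 119.7 and 381 on Mono arrays 1 to 5. It rose by 4.08 ± 0.34 (limma adjusted p = 2.56e-05), with all Mono arrays above 100 and again no overlap. CYP3A43, a minor form, was dim in both groups.

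CYP3A5 had 3 spots that did not move together. The spot annotated to the reference transcript NM_000777 read 6976, 5599, 4170.5, 5392 and 9162 on the RWV arrays and 128, 188, 529, 116 and 441 on the Mono arrays, and rose by 4.4 ± 0.35 (limma adjusted p = 2.59e-05 over all spots). A spot annotated to the transcript AF355802 read 277, 314, 180.5, 169 and 254 on the RWV arrays and 11.4, 54, 74, 14 and 51.2 on the Mono arrays. It was dim on all Mono arrays and at least 2.33-fold higher in RWV (limma adjusted p = 0.0002). The third, annotated to AF355801, read 3867, 3308, 3490.3, 3966 and 3279 on the RWV arrays and 4225, 3619, 3646, 4385 and 3412 on the Mono arrays, a log2 fold change of -0.10 ± 0.11 (95% interval -0.35 to 0.15, limma adjusted p = 0.57). Averaged over the 3 spots CYP3A5 rose by 2.0 ± 0.17 (limma adjusted p = 2.70e-05). From AF355801 alone, the brightest spot by its mean over all arrays, the gene was not past the test (log2 fold change -0.10, limma adjusted p = 0.55). On the RWV arrays the NM_000777 spot was the brighter, so this choice of spot depends on the Mono values. CYP3A4 and CYP3A7 kept their calls under all 23 alternative settings, with log2 fold changes of 2.40 to 3.70 and 3.49 to 4.33.

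The CYP3A5 spot of NM_000777 and the CYP3A7 spot ranked the Mono cultures alike, from Mono 3 at the top over Mono 5, 2 and 1 to Mono 4. CYP3A4 had the same first 3 in that order. These genes are close in sequence, and how far 1 spot also picks up another's RNA was not tested, which leaves the values of each gene uncertain. Of the hepatocyte markers given above, ALB and TTR were also higher in RWV. APOA1 was not past the test (log2 fold change -0.13 ± 0.09, limma adjusted p = 0.32). ALB read 2149, 1743, 234, 2025 and 2211 on the RWV arrays and 10.5, 34.9, 146, 39.1 and 43.3 on the Mono arrays. TTR read 478, 2884, 617, 1279.8 and 852 on the RWV arrays and 25.7, 86.9, 136, 34.2 and 82.3 on the Mono arrays. RWV 3 was the lowest RWV array for CYP3A4, CYP3A7, the NM_000777 spot and ALB. TTR was lowest on RWV 1, and the AF355802 spot of CYP3A5 on RWV 4. The part of these markers in the CYP3A result was not tested. The CYP3A genes are neighbours on chromosome 7, and the measured protein-coding genes next to them on either side, ZSCAN25 and TRIM4, looked up after the CYP3A values were seen, had log2 fold changes of -0.09 ± 0.12 and 0.13 ± 0.24 (limma adjusted p = 0.62 and 0.75).

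**Figure D4:**
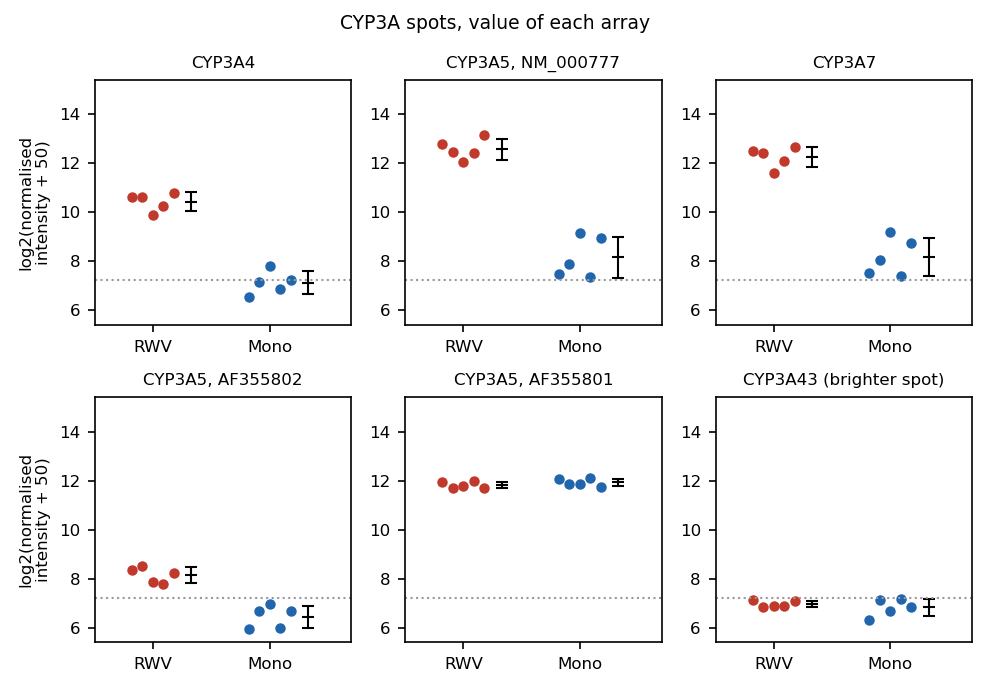
Log2(normalised intensity + 50) on each array for 6 CYP3A spots, RWV left of Mono; bars give the mean and SD of 5 arrays and the dotted line marks an intensity of 100. CYP3A4, CYP3A7 and 2 CYP3A5 spots separate the groups completely, while the CYP3A5 spot of AF355801 and CYP3A43 overlap.

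The CYP3A promoters are shown because 3 of these 4 neighbours rose and 1 was dim. In capitals is the proximal everted repeat known as ER6, a pair of half-sites of a nuclear receptor element, as it stands in CYP3A4, and the bases aligned to it in the others (RefSeq, GRCh38.p14, 250 bases before the start).
CYP3A4 (chr7:99784185-99784434, minus strand): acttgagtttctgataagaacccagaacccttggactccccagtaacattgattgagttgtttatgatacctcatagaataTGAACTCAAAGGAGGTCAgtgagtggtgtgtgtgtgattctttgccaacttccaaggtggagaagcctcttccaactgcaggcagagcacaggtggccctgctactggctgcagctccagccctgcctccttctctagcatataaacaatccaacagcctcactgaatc
CYP3A5 (chr7:99679997-99680246, minus strand): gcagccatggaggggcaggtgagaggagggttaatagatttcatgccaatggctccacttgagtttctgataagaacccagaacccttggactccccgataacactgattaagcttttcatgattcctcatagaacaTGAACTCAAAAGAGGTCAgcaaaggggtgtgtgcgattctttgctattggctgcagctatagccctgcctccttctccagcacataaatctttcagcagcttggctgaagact
CYP3A7 (chr7:99735197-99735446, minus strand): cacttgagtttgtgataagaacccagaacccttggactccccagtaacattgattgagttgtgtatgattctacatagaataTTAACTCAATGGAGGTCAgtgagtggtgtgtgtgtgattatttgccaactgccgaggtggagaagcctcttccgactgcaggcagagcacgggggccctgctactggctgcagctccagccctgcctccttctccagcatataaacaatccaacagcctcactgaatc
CYP3A43 (chr7:99827763-99828012, plus strand): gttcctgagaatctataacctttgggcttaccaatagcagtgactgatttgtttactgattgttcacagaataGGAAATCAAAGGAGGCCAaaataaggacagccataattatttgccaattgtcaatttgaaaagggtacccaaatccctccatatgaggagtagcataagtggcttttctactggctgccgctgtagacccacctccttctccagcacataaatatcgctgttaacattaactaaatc
Aligned to CYP3A4, the upstream bases were 94.8% identical in CYP3A7 (236 of 249), 85.3% in CYP3A5 (163 of 191) and 75.9% in CYP3A43 (176 of 232). Counted from 1 at the first base of the 18-base site, with the CYP3A4 base first, CYP3A5 carried G11A, CYP3A7 carried G2T and A10T, and CYP3A43 carried T1G, C5A and T16C. The full pattern, TGAACT and AGGTCA with any 6 bases between them on either strand, was in 3 of the 35116 windows (0.00854%), among them CYP3A4 and CYP3A5. The letters are those of the CYP3A4 site, so its match was given, and other spellings were not counted. CYP3A7 lacked these letters by a substitution in the first half-site. The part of the site in the CYP3A values was not tested.

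Family 2 was mostly dim or overlapping. Of 13 genes 4 were higher (30.8%, against 15% of all genes) and none was lower (against 15.2%), but 3 of the 4 were at or near the dim level. CYP2S1, an AHR-inducible enzyme of epithelia, read 5301, 3793, 4088, 3696 and 4411 on RWV arrays 1 to 5, against 1544, 2254, 3407, 597 and 2068 on Mono arrays 1 to 5. The lowest RWV value was just above the highest Mono value, and CYP2S1 rose by 1.27 ± 0.35 (limma adjusted p = 0.017). Without Mono 4, its lowest array, the rise was 0.91 (adjusted p = 0.0059), and it was not past the test within either set of arrays (0.069 for numbers 1 to 3 and 0.12 for 4 and 5). CYP2R1, a vitamin D 25-hydroxylase, read 5014, 5762, 3699, 5021 and 5318 on the RWV arrays and 3662, 3894, 3389, 3383 and 3844 on the Mono arrays at its brighter spot, which rose by 0.43 ± 0.13 (limma adjusted p = 0.025 over all spots). Averaged with its other spot it had a log2 fold change of 0.34 ± 0.12 (limma adjusted p = 0.053), and its adjusted p was 0.0082 without RWV 3, 0.041 with dim genes left out and 0.032 with a pseudocount of 200.

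CYP2A13, a nitrosamine-activating enzyme of the airways, passed the test at 85.4 to 103 in RWV and 51.4 to 82.7 in Mono cultures, around or below 100, so no fold is given. Its adjusted p was 0.055 without RWV 1, 0.058 without Mono 2, 0.052 without Mono 3 and 0.056 without Mono 5. CYP2D6, which metabolises many antidepressants, read at most 159.7 in RWV cultures and was dim in Mono cultures (limma adjusted p = 0.044). It was not past the test without any one of 8 arrays, all but RWV 2 and Mono 4 (adjusted p 0.053 to 0.10), nor within either set of arrays (0.092 and 0.5). CYP2C8 passed the test while dim in both groups (limma adjusted p = 0.016). The remaining family 2 genes above the dim level, CYP2B6, CYP2F1, CYP2U1 and CYP2W1, had log2 fold changes from -0.23 (CYP2U1) to 0.30 (CYP2W1), with limma adjusted p from 0.12 to 0.86.

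Of the 11 family 4 genes, which hydroxylate fatty acids and eicosanoids, 6 rose (54.5%, against 15% of all genes) and none fell (against 15.2%), and 5 of the 6 belonged to CYP4F. CYP4F12 read 2612, 2526, 3034, 2918 and 3388 on RWV arrays 1 to 5, against 730.4, 980.2, 1269, 176 and 772 on Mono arrays 1 to 5, and rose by 2.02 ± 0.38 (limma adjusted p = 0.0018). CYP4F8, which hydroxylates prostaglandin endoperoxides, read 3802, 3692, 4128, 3028 and 3966 on RWV arrays 1 to 5, against 1064, 1325, 1699, 370 and 1133 on Mono arrays 1 to 5. It rose by 1.83 ± 0.31 (limma adjusted p = 0.00095). Both genes had all RWV arrays above all Mono arrays and ranked the Mono cultures alike, from Mono 3 over Mono 2, 5 and 1 to Mono 4. Without Mono 4 the rises were 1.6 and 1.49. Within array numbers 4 and 5 neither passed (limma adjusted p = 0.055 and 0.061), with log2 fold changes of 2.89 and 2.32, and within numbers 1 to 3 they were 1.44 and 1.5.

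CYP4F3, which inactivates leukotriene B4, read 236, 264, 253, 319 and 369 on the RWV arrays and 143, 136, 178, 100.4 and 172 on the Mono arrays and rose by 0.79 ± 0.14 (limma adjusted p = 0.0016). CYP4F2, a vitamin K and leukotriene hydroxylase, rose by 0.74 ± 0.12 over its 3 spots (limma adjusted p = 0.00061). The spots differed in size, from 0.35 ± 0.18 to 1.43 ± 0.25, and 2 of the 3 passed by themselves. The spot with the largest change read 611, 686, 779, 659.5 and 701 on the RWV arrays and 249, 287, 374, 81.7 and 218 on the Mono arrays. CYP4F3 and CYP4F2 lost their calls without normalisation (limma adjusted p = 0.054 and 0.12). CYP4F11, which clears fatty acids and several drugs, rose by 0.78 ± 0.27 (limma adjusted p = 0.046), 1.07 at 1 spot and 0.49 at the other. The first spot read 471, 741, 646, 638 and 640.4 on the RWV arrays and 318, 368, 462, 100.4 and 232 on the Mono arrays. The call for CYP4F11 held without RWV 1, Mono 2, Mono 3 or Mono 4 but not without any of the other 6 arrays (adjusted p 0.069 to 0.096), nor within either set (0.31 and 0.072). CYP4F3 was not past the test within numbers 4 and 5 (limma adjusted p = 0.067). CYP4F22, a skin ceramide enzyme, was dim, and the pseudogenes CYP4F29P and CYP4F30P had log2 fold changes of 0.18 ± 0.24 and 0.13 ± 0.11 (limma adjusted p = 0.65 and 0.44). The CYP4F genes resemble each other in sequence, and signal shared between their spots was not tested.

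CYP4V2, a fatty acid hydroxylase of the eye and other tissues, had 4 spots that disagreed. The largest rise, 1.67 ± 0.22 (limma adjusted p = 0.00021 over all spots), came from a spot with 1282, 626, 1110.2, 972 and 1312 on the RWV arrays and 200.4, 210.3, 371, 336 and 364 on the Mono arrays. Another 2 spots rose and were dim on all Mono arrays (at least 1.42-fold and 1.48-fold higher). The fourth, annotated to AY358619, read 1514, 1292, 1904, 2415 and 1950 on the RWV arrays and 2869, 2844, 2500.1, 3763 and 2409 on the Mono arrays and fell by 0.66 ± 0.18 (limma adjusted p = 0.014). Averaged over the 4, CYP4V2 rose by 0.63 ± 0.13 (limma adjusted p = 0.0032), but the brightest spot, AY358619, gave -0.66, and the gene was not past the test without normalisation (limma adjusted p = 0.16) or within either set of arrays (0.071 and 0.089). CYP4A11, of fatty acid omega-oxidation, stayed below 100 on all but 1 array.

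**Figure D5:**
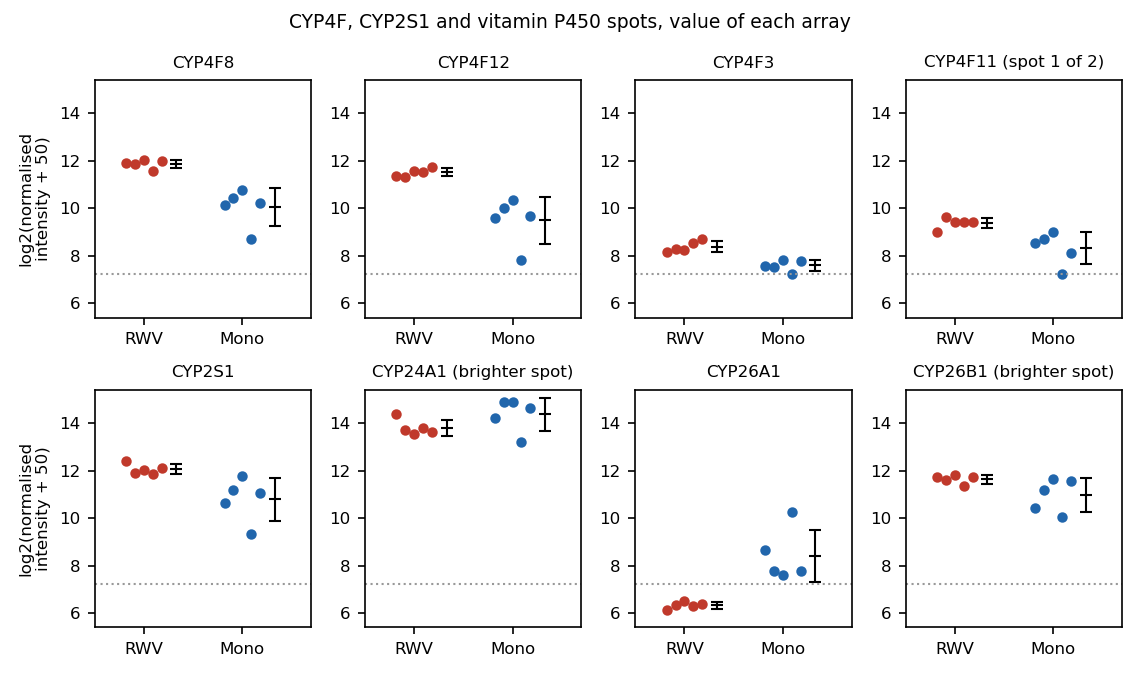
Log2(normalised intensity + 50) on each array for CYP4F genes, CYP2S1 and the P450s of vitamin D and retinoic acid, RWV left of Mono; bars give the mean and SD of 5 arrays and the dotted line marks an intensity of 100. CYP26A1 lies below the dotted line on all RWV arrays and above it on all Mono arrays, and Mono 4 is the lowest Mono array in 7 of the 8 panels.

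Among the enzymes of vitamin D and retinoic acid turnover, 1 of 4 changed (25%, against 30.1% of all genes). CYP26A1, which clears retinoic acid and is itself a retinoic acid target, read 20.7, 30.1, 40.6, 28 and 32.5 on RWV arrays 1 to 5, against 351, 168, 146, 1163 and 169 on Mono arrays 1 to 5. It was dim on every RWV array, above 100 on every Mono array and highest on Mono 4. By the mean Mono level it was thus at least 2.9-fold lower in RWV (limma adjusted p = 0.0027). Mono 4 raised that bound, as the other Mono arrays read 146 to 351. Without Mono 4 the limma adjusted p of CYP26A1 was 0.00021. Within array numbers 4 and 5 it was not past the test (limma adjusted p = 0.11). Its relative CYP26B1 read 3303, 3074, 3501, 2523 and 3336 on the RWV arrays and 1328, 2274, 3132, 1020.1 and 2989 on the Mono arrays at the brighter spot, with overlapping groups and a log2 fold change over both spots of 0.48 ± 0.26 (95% interval -0.10 to 1.06, limma adjusted p = 0.21).

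CYP24A1, the vitamin D 24-hydroxylase and among the brightest P450 spots of these cells, read 21253, 13350.3, 11844, 14234 and 12468 on RWV arrays 1 to 5, against 18755, 30325, 30302, 9378 and 25044 on Mono arrays 1 to 5 at the brighter of its 2 spots. Its log2 fold change over both was -0.57 ± 0.29 (95% interval -1.20 to 0.06, limma adjusted p = 0.17), not past the test. Mono 4 lay far below the other Mono arrays. Without it CYP24A1 fell by 0.85 (limma adjusted p = 0.0058), and without normalisation the adjusted p was 0.029. CYP27B1, the 1-alpha-hydroxylase that activates vitamin D, read 77.1 to 131 in RWV and 67.5 to 136 in Mono cultures, at the dim level (log2 fold change 0.01 ± 0.16, limma adjusted p = 0.97).

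The promoter of CYP26A1 is shown because it was the 1 member that fell. In capitals is a direct repeat spaced by 5 bases, AGTTCA at both ends on either strand, the form of a retinoic acid response element.
CYP26A1 (chr10:93073643-93073892, plus strand, 1 of 2 starts listed): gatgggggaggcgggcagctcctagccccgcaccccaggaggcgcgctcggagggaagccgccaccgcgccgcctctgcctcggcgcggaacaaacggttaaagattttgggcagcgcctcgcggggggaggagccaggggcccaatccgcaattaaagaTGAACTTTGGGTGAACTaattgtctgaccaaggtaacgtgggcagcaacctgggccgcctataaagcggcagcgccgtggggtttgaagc
The repeat lay 90 bases before the start, on the opposite strand, and occurred in 3 of 35116 windows (0.00854%). The letters searched are those of the CYP26A1 site, so its match was given. Other spellings were not counted, and the share does not measure how often such elements occur. The part of the repeat in the CYP26A1 values was not tested.

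The steroid hormone, bile acid and other enzymes gave no call above the dim level. Of the 6 steroid hormone enzymes none passed: CYP11A1, CYP11B1 and CYP19A1 reached 100 on some array and had log2 fold changes of 0.04 ± 0.22, 0.14 ± 0.18 and -0.01 ± 0.18 (limma adjusted p = 0.93, 0.61 and 0.97). CYP39A1, an oxysterol 7-alpha-hydroxylase, passed the test while dim in both groups (limma adjusted p = 0.024, and 0.062 without RWV 1, 0.062 without Mono 2 and 0.0503 without Mono 4). CYP20A1, an orphan enzyme, had 4 spots and a log2 fold change of 0.21 ± 0.13 (limma adjusted p = 0.24), and CYP2A7P1, a pseudogene, one of -0.12 ± 0.21 (limma adjusted p = 0.72). CYP51A1-AS1 was at or above a deposited intensity of 60000 on 9 of 10 arrays, so that no fold is given. Counted by spot, 21 of the 93 were higher and 2 lower (24.7% in all, against 28.6% of all spots, 14% higher and 14.6% lower), and the 2 were CYP26A1 and the AY358619 spot of CYP4V2.

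Genes around the P450s were counted from 8 lists of 53 genes, of which 42 were measured and the other 11 are not analysed here. In all 7 (16.7%) were higher and 11 (26.2%) lower, again beside 15% and 15.2% of all genes. In the list of the AHR complex 3 of 4 measured genes fell. The fourth, ARNT2, a partner for AHR-type factors on DNA, had a log2 fold change of -0.29 ± 0.12 (limma adjusted p = 0.098). The 3 encode chaperones of the complex that holds AHR in the cytosol, among them HSP90AA1 (-0.70 ± 0.19, limma adjusted p = 0.015), with a spot at or above a deposited intensity of 60000 on 4 arrays, and the co-chaperone PTGES3 (-0.51 ± 0.13, limma adjusted p = 0.013), with such a spot on 2. Of 5 measured genes of the AHR target battery 3 rose and none fell. GSTA1, a glutathione transferase, read 3601, 3269, 474, 5584 and 4519.5 on the RWV arrays and 31.8, 72.7, 478, 10.3 and 119.7 on the Mono arrays, so that RWV 3 and Mono 3 met at the same level, and rose by 4.3 ± 0.68 (limma adjusted p = 0.00064). The glucuronosyltransferase UGT1A6, whose exons are shared with other UGT1A genes, rose by 1.25 ± 0.29 (limma adjusted p = 0.0062).

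Genes for the supply of electrons and haem were in part lower. Of 6 measured electron partners 3 fell (50%, against 15.2% of all genes). The mitochondrial ferredoxin FDX1 fell by 0.93 ± 0.13 (limma adjusted p = 0.00027) and cytochrome b5, CYB5A, by 0.53 ± 0.14 (limma adjusted p = 0.012). FDX1 read 1622, 1663, 1509, 1679 and 1629.8 on the RWV arrays and 3248, 3329.9, 2436, 4042 and 2832 on the Mono arrays, without overlap. Of 7 haem synthesis genes 2 fell (28.6%). These were the rate-limiting ALAS1, by 0.86 ± 0.13 (limma adjusted p = 0.00053), and ferrochelatase, FECH, by 0.59 ± 0.13 (limma adjusted p = 0.0054). ALAS1 read 465, 629, 677, 465 and 537 on the RWV arrays and 1225, 1071, 1119, 932 and 888 on the Mono arrays. In neither list did a gene rise, against 15% of all genes.

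Of 6 measured nuclear receptors of xenobiotics, sterols and vitamin D, 1 rose and 1 fell (16.7% each, against 15% and 15.2% of all genes). PPARA, the fatty acid sensor, rose by 0.90 ± 0.16 (limma adjusted p = 0.0012), reading 219.6, 237, 201, 221 and 209.9 on the RWV arrays and 71.7, 105, 146, 52.6 and 109.5 on the Mono arrays. NR1I3, the constitutive androstane receptor, passed the test while dim in both groups. The soluble epoxide hydrolase EPHX2 (0.82 ± 0.19, limma adjusted p = 0.0057) rose, 1 of 2 in its list. TBXAS1, thromboxane synthase and a P450 by structure, rose by 1.63 ± 0.21 (limma adjusted p = 0.00018), and PTGIS was dim. Of 10 measured retinoid genes 1 rose and 2 fell, 30% in all, against 30.1% of all genes. STRA6, the cell's retinol importer, read 4258, 4216, 3476, 4596 and 3835 on the RWV arrays and 880.4, 1265, 1753, 816 and 1445 on the Mono arrays and rose by 1.74 ± 0.19 (limma adjusted p = 8.46e-05). ALDH1A3, which makes retinoic acid, fell by 0.64 ± 0.15 (limma adjusted p = 0.0075).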

How the data were processed

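Arrays of 1 colour (Cy3) were made from total RNA of 5 RWV and 5 Mono cultures of A549 cells, per the labels' protocols. The deposited values are spot intensities on a linear scale, whole numbers from -66 to 65493, whose medians differ between arrays. No source used here gives the scanner or how background was handled. Groups were taken from the sample titles, since the growth protocol names RWV for all samples. Spots were named through the platform annotation, and symbols checked by gene number against RefSeq (GRCh38.p14), which matched 31291 of 31332 spots and changed 0 symbols. Spots with several symbols (93) or none were left out.

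All spots were quantile normalised (limma 3.58.1, R 4.3.3), negative values became 0, and log2 was taken after adding 50. Spots of a gene were averaged on the log2 scale. The two-sided limma test (lmFit, eBayes) was adjusted by Benjamini-Hochberg over all genes (or spots), threshold 0.05; single values also by exact permutation over 252 assignments of arrays. Where 1 group was dim, the bound is the bright group's level over 100. The fit was tested on simulated data. Promoters were aligned with Biopython 1.88 in Python 3.11.15, and figures drawn with matplotlib 3.10.9.

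Members, lists, the dim level and the array sets (numbers 1 to 3, and 4 and 5, told apart by the lower end of their intensities) were chosen with earlier results of these data known. Values on every array are given for AHR, AHRR, ARNT, TIPARP, POR, the 3 family 1 genes and members past the threshold by at least 2-fold, and by choice after the values were seen for spots that disagree and for CYP24A1, CYP26B1, CYP2R1, CYP4F2, CYP4F3, CYP4F11 and CYP4V2; from each list the 2 largest changes past the threshold are named. Alternatives changed normalization, pseudocount, filter, spot choice, saturation, variance trend, blocks, array sets and each array in turn.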

Additional observations from a re-analysis of the deposited data

Results flagged for a closer look

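Within the groups of 5 arrays, 1 array stood far from the other 4 in 4 of 76 groups examined, a gap of over 0.71 of the group's range; chance gives about 1 in 20. The arrays, with levels averaged over a gene's spots, were RWV 1 for ARNT, at 156.5 against 181 to 188 on the other RWV arrays (gap 0.791 of the range), Mono 3 for CYP11A1, at 17.9 against 62.9 to 81.7 on the other Mono arrays (0.768), Mono 4 for CYP11B1, at 144.8 against 81 to 91.2 (0.812), and Mono 5 for CYP4F30P, at 82.9 against 107.7 to 118.1 (0.726). None of these 4 genes was past the test.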

How the results depend on the processing

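With 17 members higher, 1 lower, 23 member spots, 18 list genes and 5526 genes in all past the test, the counts depended most on normalization and on array sets. Without normalization they were 7, 3, 15 spots, 15 list genes and 3555 genes, and the median of all genes was -0.13 (0.01 with it). The cause was not tested. Within array numbers 1 to 3 they were 8, 2, 14, 10 and 3017, and within numbers 4 and 5 4, 0, 7, 5 and 1052, from fewer arrays. The count of members lower in RWV was 2 with scaling to the 75th percentile, with a pseudocount of 16, with the brightest spot and with the replicate block, and 3 with dim genes left out and with the array set as a block, the additions being POR (75th percentile), AHRR (pseudocount, replicate block), CYP4V2 (brightest spot) or both POR and AHRR. Leaving out 1 array gave 12 to 16 members higher, 1 to 3 lower (CYP8B1 without RWV 5, AHRR without Mono 3, CYP24A1 and POR without Mono 4), 18 to 25 spots, 16 to 19 list genes and 4449 to 5632 genes. Without Mono 4 and RWV 3, chosen after seeing the data, 16 were higher and 3 lower. By the brightest spot CYP3A5 was -0.10 (not past the test) and CYP4V2 -0.66. Of 917 values for 40 members under 23 alternatives, 821 kept their side of the threshold, 73 were no longer past it, 21 became past it and these 2 had a called value change sign. In all 39 values, of 14 genes, had the other sign, 37 of them not past the test in either fit. The labels tie arrays with the same number by that number only, and whether they shared a run was not tested. Their deviations correlated by -0.15 to 0.22, and 3 of 5 RWV arrays correlated best with their own number. With the replicate block 18 members were higher, CYP2R1 added (limma adjusted p = 0.043). AHRR was lower (limma adjusted p = 0.0498) and 5423 genes passed. Dim signal limits 33 of the 61 genes, which have no level above 100 in at least 1 group.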
